A study of Mus musculus with 32 samples.

Results

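The cytosolic ribosomal protein genes encode the protein part of the ribosome outside mitochondria. They were taken here as the genes with a probe set that names a single symbol beginning with Rpl or Rps and a number, with Rplp0, Rplp1, Rplp2 and Rpsa added, and with the S6 kinase genes (Rps6k) and pseudogenes left out. This gave 36 of 13675 genes that have a probe set of their own. Of these, 17 encode proteins of the small ribosomal subunit and 18 proteins of the large subunit. The remaining gene, Rps19bp1, matches the spelling of the symbols but encodes a protein that binds Rps19 and is not part of the ribosome. Where a gene had more than 1 probe set, as 9 genes did, the one with the highest mean log2 signal stands for it, and the 36 were taken in this way from 49 probe sets.

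Total RNA of the mouse cardiac ventricle had been hybridised to 2 Affymetrix array types with different probe sets, called here the first and the second. Each type held 3 arrays of cardiac failure, 8 of cardiac hypertrophy and 5 of wild type mice. The failure and hypertrophy mice both carried a transgene named AT1 that is specific to the heart, and the labels do not spell out AT1 or name its promoter or line. Age, sex and strain are not stated, nor whether each array holds a different animal. The p-values below therefore rest on the spread between arrays, which may be technical. Of the 36 genes, 34 were represented on the first type, and Rpl27 and Rps19bp1 on the second.

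A ribosome joins ribosomal RNAs to a fixed set of proteins, and the genes for the proteins are transcribed in nearly every cell. Their messages begin with a run of pyrimidines at the 5′ end, the terminal oligopyrimidine tract, through which mTORC1 signalling controls their translation. In the heart, growth of muscle cells needs more protein synthesis, and building more ribosomes is a known part of hypertrophy.

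Sequences around the annotated transcription start show a run of pyrimidines, beginning with C or with T, in some of the genes. RefSeq promoters (GRCm38.p6) of 300 bases, from 250 bases before to 50 bases after the start, were matched for 30 of the 36 genes. Below are 20 bases before and 20 from the start on the gene's strand, 5′ to 3′, with capitals for a run of C or T that begins at the start itself. The first 6 genes are shown because they hold such a run. Rps13 and Rpl22 are shown because they have none and the probe sets used for them deviated against the other genes across arrays. These last genes were chosen after their values were seen, and a link between a run and the course across arrays was not tested.
Rps18: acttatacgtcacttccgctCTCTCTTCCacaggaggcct
Rps10: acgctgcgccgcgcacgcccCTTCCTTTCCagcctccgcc
Rps27: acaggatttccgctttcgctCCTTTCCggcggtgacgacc
Rps24: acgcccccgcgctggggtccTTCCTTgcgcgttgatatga
Rpl7a: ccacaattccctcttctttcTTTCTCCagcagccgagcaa
Rpl38: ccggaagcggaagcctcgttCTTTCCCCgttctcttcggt
Rps13: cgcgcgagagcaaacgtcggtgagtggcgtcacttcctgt
Rpl22: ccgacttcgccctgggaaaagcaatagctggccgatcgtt

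These windows lie at chr17:33955646-33955685 (Rps18, minus strand), chr17:27635225-27635264 (Rps10, minus), chr3:90213629-90213668 (Rps27, minus) and chr14:24490658-24490697 (Rps24, plus). RefSeq lists 2 starts for Rps24. The windows of Rpl7a, Rpl38, Rps13 and Rpl22 lie at chr2:26910787-26910826 (plus), chr11:114668560-114668599 (plus), chr7:116334171-116334210 (minus) and chr4:152325706-152325745 (plus). A run of at least 5 C or T from the start was found in 7 of the 30 genes (23.3%), with Rpl35a beside the 6 shown, against 5.28% of 27025 genes. The letters CCGGAAG, the core of ETS-family binding sites, occurred on either strand in 12 of 30 (40%), against 9.93% of all genes. AAGATGGC, a core of YY1 sites, occurred in 5 of 30 (16.7%), against 3.19%, and none of these 5 held CCGGAAG. The TATA box letters TATAAA occurred in 4 of 30 (13.3%), against 15.7%. A match describes these letters only, and a start annotated a few bases away hides a tract.

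Of the 36 genes, 28 were bright enough to be tested, 27 of them on the first array type. The other 8, not tested because dim, were Rpl13a, Rpl27, Rpl35a, Rpl38, Rpl39l, Rpl7l1, Rps14 and Rps20, and each stayed below a signal of 100 on every array. Rpl39l, a paralog of Rpl39 best known from the mouse testis, had a signal of 11.8 ± 6.83 in failure (SD, n = 3), 13.5 ± 6.68 in hypertrophy (SD, n = 8) and 13.9 ± 5.22 in wild type (SD, n = 5). Rpl7l1, a paralog of Rpl7, had 61.3 ± 8.99, 61.4 ± 7.29 and 63.9 ± 11.5 in the same 3 groups. Neither of these signals separated the groups. Rpl27 was the one dim gene with failure arrays (56.8, 40.2 and 33.5) all above wild type (23.9, 28.8, 24.9, 33.2 and 29.3), at signals near the floor of 27.5, and its hypertrophy arrays ran from 1 to 71.7. Many ribosomal protein genes have processed copies in the genome. Probe sets that also name other symbols were found for 33 genes or gene pairs (such as Rpl36a with Rpl36al), Rps6, Rplp1, Rpl3 and Rpl5 among them. The other symbols on these probe sets are called copies here, and whether each is a copy was not checked. These probe sets are described apart. Rps14 and Rps27 have both kinds of probe set.

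The heart muscle markers Myh6, Myl2, Tnnt2 and Actc1 were bright on all 16 arrays of the first type, with no signal below 5810. The libraries differed in ways the labels do not explain. The 3′ control probe set for 18S ribosomal RNA gave 384, 304 and 451 in failure. In hypertrophy it gave 5877 in replicate 1, 3613 in replicate 4, 1660 in replicate 5 and 1470 in replicate 2, and 307 to 776 in the 4 others. In wild type it gave 6297 in replicate 2, 926 in replicate 1 and 284 to 554 in the other 3. The 5′ signal of Gapdh was 0.468 and 0.0487 of its 3′ signal in hypertrophy replicates 6 and 7, and 0.806 to 1.11 on the 14 other arrays.

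In failure against wild type, none of the 28 genes passed the test (limma, adjusted p under 0.05), and none had an unadjusted p under 0.05. Among all probe sets tested on the first array type, 0.143% passed in this comparison and 10.7% had an unadjusted p under 0.05, and on the second type, which holds Rps19bp1, 0.357% and 12.2% did. None of the 28 had its 3 failure arrays all above or all below the 5 wild type arrays, while 13.3% of all tested probe sets of the first type and 13.8% of the second did. The log2 changes ran from -0.27 to 0.26 with a median of -0.009, positive for 14 genes and negative for 14, beside a median of 0.041 over all tested probe sets of the first type and 0.059 of the second. The median was 0.001 after quantile scaling and -0.103 after median scaling, so its sign depends on the scaling. Small-subunit genes had a median of -0.067 (15 tested) and large-subunit genes one of 0.031 (12 tested).

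**Figure D1:**
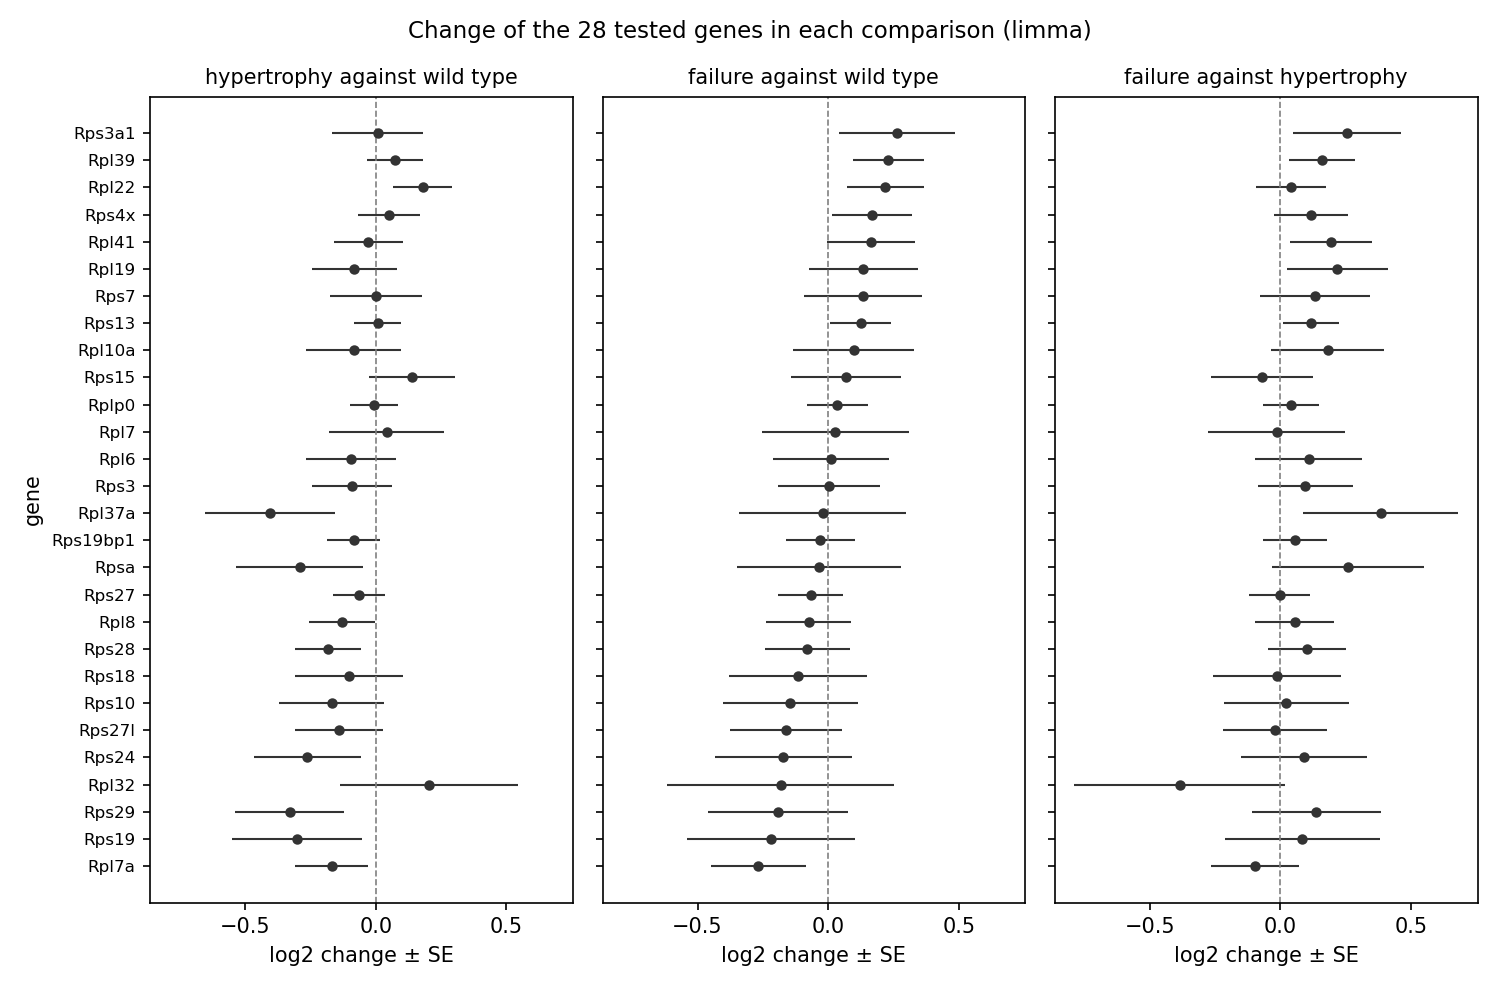
Log2 change (x axis) of each of the 28 tested genes (y axis) for hypertrophy against wild type, failure against wild type and failure against hypertrophy. Points are limma coefficients and bars their standard errors. All points lie between -0.41 and 0.39, and no gene passed the test in any of the comparisons.

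Among the large-subunit genes, Rpl39, whose protein lines the exit of the peptide tunnel, had the smallest unadjusted p of failure against wild type. Its signal was 3169, 2426 and 1988 in failure, 1863 to 2482 with a median of 2216 in hypertrophy, and 1849, 2318, 2264, 2151 and 2023 in wild type. Failure replicate 1 stood above every other array, and failure replicate 3 lay inside the wild type range. The log2 change was 0.23 ± 0.14 (± marks the SE for all log2 changes) with an adjusted p of 0.598, and it was 0.05 without failure replicate 1 and 0.39 without failure replicate 3.

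Rpl7a, another protein of the large subunit, had 1189, 1122 and 1158 in failure and 1297, 1106, 1629, 1550 and 1435 in wild type. The 3 failure arrays lay close together and below 4 of the 5 wild type arrays. In hypertrophy Rpl7a had 876 to 1764 with a median of 1219. The change in failure against wild type was -0.27 ± 0.18 with an adjusted p of 0.654. With array weights, which count arrays of greater scatter less, it was -0.35 with an adjusted p of 0.0479, the single setting in which any of the 28 genes passed.

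Rpl22, which in mice holds down the expression of its own paralog Rpl22l1, had 347, 371 and 367 in failure and 286, 392, 266, 301 and 320 in wild type. Its hypertrophy arrays ran from 296 to 449 with a median of 346. The change was 0.22 ± 0.15 in failure against wild type (adjusted p 0.649) and 0.18 ± 0.11 in hypertrophy against wild type (adjusted p 0.960). The failure arrays of Rpl22 lay inside the wild type range, in which replicate 2 alone exceeded them. A probe set that names Rpl22l1 with other symbols had changes of -0.27 ± 0.23 and -0.35 ± 0.18 in the same comparisons (adjusted p 0.732 and 0.960). A link between the 2 genes was not tested.

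The stalk protein Rplp0, on which elongation factors land, had one of the steadiest signals. Failure arrays gave 2784, 2915 and 2649, hypertrophy arrays 2298 to 3329 with a median of 2649, and wild type arrays 2594, 2500, 2794, 2735 and 2977. All 3 groups overlapped, with changes of 0.03 ± 0.12 in failure and -0.01 ± 0.09 in hypertrophy against wild type. Rpl41, the shortest ribosomal protein, had 5124, 5067 and 3835 in failure, 3034 to 4874 with a median of 4217 in hypertrophy, and 3397 to 4598 with a median of 4232 in wild type. Failure replicates 1 and 2 were the brightest of the 16 arrays for Rpl41 and failure replicate 3 was not, and the change was 0.17 ± 0.17 against wild type (adjusted p 0.787). For Rpl7, failure arrays gave 994, 972 and 825 and wild type arrays 969, 682, 1049, 967 and 929, a log2 change of 0.03 ± 0.28 (adjusted p 0.988).

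For the small subunit, Rps3a1 had 1943, 1663 and 1591 in failure, 947 to 2028 with a median of 1491 in hypertrophy, and 1327, 1078, 1712, 1616 and 1550 in wild type. Its change of 0.26 ± 0.22 in failure against wild type (adjusted p 0.726) was the highest of the 28 genes. Rps4x, the X-linked form of Rps4, had 1875, 1968 and 1882 in failure and 1818, 1310, 1727, 1742 and 1979 in wild type, a change of 0.17 ± 0.15 (adjusted p 0.755). Failure arrays of Rps4x lay in a narrow band inside the wild type range.

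Rps13 had 2041, 2036 and 2132 in failure, 1513 to 2121 with a median of 1944 in hypertrophy, and 1781, 2214, 1920, 1762 and 1850 in wild type. The change of 0.12 ± 0.12 in failure against wild type had an adjusted p of 0.763. Rpsa, a small-subunit protein also known as the laminin receptor, had 339, 296 and 334 in failure and 322, 183, 400, 381 and 436 in wild type, a change of -0.03 ± 0.31. Wild type replicate 2 was the lowest of the wild type arrays, and all 3 failure arrays of Rpsa lay within the wild type range.

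Rps27 and its paralog Rps27l were measured by separate probe sets. Rps27 had 281, 276 and 242 in failure, 228 to 302 with a median of 269 in hypertrophy, and 288, 229, 326, 270 and 289 in wild type. Rps27l had 400, 428 and 320 in failure, 246 to 632 with a median of 394 in hypertrophy, and 411, 429, 473, 453 and 367 in wild type. Neither member of the pair separated the groups: the changes in failure against wild type were -0.07 ± 0.13 and -0.16 ± 0.21, and in hypertrophy against wild type -0.06 ± 0.10 and -0.14 ± 0.17. Rps19bp1, outside the ribosome, had 440, 378 and 355 in failure, 322 to 420 with a median of 388 in hypertrophy, and 468, 390, 400, 326 and 418 in wild type on the second type. Its groups overlapped, with a change of -0.03 ± 0.13 in failure against wild type.

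In hypertrophy against wild type, again none of the 28 genes passed, none had an unadjusted p under 0.05, and none had groups without overlap. Of all tested probe sets of the first type, 0% passed in this comparison, 4.47% had an unadjusted p under 0.05 and 0.172% did not overlap. On the second type these shares were 0.171%, 9.77% and 0.7%. The log2 change was negative for 19 genes and positive for 9, with a median of -0.085, a range of -0.40 to 0.20, beside a median of -0.013 over all tested probe sets of the first type and 0.032 of the second. By subunit the median was -0.102 for small-subunit genes and -0.055 for large-subunit genes. Without hypertrophy replicate 1 the median over the 28 genes was -0.019.

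Rpl37a, a small zinc-binding protein of the large subunit, had the most negative change. Its hypertrophy arrays ran from 493 to 1814 with a median of 982, and wild type arrays gave 1327, 1071, 1665, 1302 and 1338. The 3 lowest hypertrophy arrays were replicates 6 (493), 1 (716) and 7 (755), and replicates 6 and 7 are those of low Gapdh ratio. The change was -0.40 ± 0.25 with an adjusted p of 0.960, and -0.17 without replicates 6 and 7.

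Several small-subunit genes also had negative changes. Rps29 had 307 to 872 with a median of 530 in hypertrophy and 633, 498, 808, 900 and 545 in wild type, a change of -0.33 ± 0.21. Rps19, the gene most often mutated in human Diamond-Blackfan anaemia, had 205 to 650 with a median of 382 in hypertrophy and 499, 335, 571, 524 and 390 in wild type, a change of -0.30 ± 0.25. The hypertrophy arrays spread past both ends of the wild type range in Rps19 and past its lower end in Rps29. Rpsa, with 140 to 416 and a median of 299 in hypertrophy, had a change of -0.29 ± 0.24.

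The log2 change was -0.26 ± 0.20 for Rps24 and -0.18 ± 0.13 for Rps28, and the adjusted p of these 5 small-subunit genes ran from 0.960 to 0.965. Rps28 had 2098 to 3744 with a median of 2942 in hypertrophy and 3231, 2969, 3477, 3636 and 2756 in wild type. Its wild type arrays all lay inside the hypertrophy range. For Rps24 the identity of the probe set is uncertain, since its source sequence is shared with a probe set annotated to Rpl7. The other Rps24 probe set had a log2 change of -0.37 ± 0.14, with an unadjusted p of 0.0140 and an adjusted p of 0.960.

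In failure against hypertrophy, 21 of the 28 genes had a positive log2 change and 7 a negative one, and none passed or had an unadjusted p under 0.05. The share of all tested probe sets of the first type that passed was 0%, and 10.1% had an unadjusted p under 0.05, while 0.0286% and 8.67% did so on the second type. No gene had groups without overlap, against 2.54% of the probe sets of the first type and 1.78% of the second. The changes ran from -0.39 to 0.38 with a median of 0.093, beside 0.052 over all tested probe sets of the first type and 0.028 of the second. This comparison and the one of hypertrophy with wild type share the hypertrophy arrays. With the 18S signal as a covariate, a fit chosen after seeing the data, the median was -0.084.

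The highest change was that of Rpl37a at 0.38 ± 0.30 (adjusted p 0.715), whose failure arrays gave 1478, 1217 and 1245, inside the wide hypertrophy range above. Rpl19, which forms a bridge between the subunits, had 1987, 1803 and 1962 in failure and 1172 to 2336 with a median of 1773 in hypertrophy, a change of 0.22 ± 0.19 (adjusted p 0.761). The log2 change was 0.26 ± 0.21 for Rps3a1, 0.19 ± 0.16 for Rpl41, 0.16 ± 0.13 for Rpl39 and 0.12 ± 0.11 for Rps13, with adjusted p-values of 0.721 to 0.773. Without failure replicate 1 the change of Rpl39 was -0.02, and without failure replicate 3 it was 0.32. For all of these genes the failure arrays lay at least in part within the hypertrophy range.

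No tested gene had a log2 change beyond 0.5 in either direction in any comparison. Of all tested probe sets of the first type, the share with one was 5.86% in failure against wild type and 1.19% in hypertrophy against wild type. In the comparison of failure with hypertrophy it was 5.01%. The median standard error of the 28 genes was 0.21, 0.17 and 0.20 in these 3 comparisons, above the 0.17, 0.13 and 0.15 of all tested probe sets. Log2 changes of the size seen here could not be told from the spread between arrays.

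The clearest pattern in the ribosomal protein genes lay among arrays of the same group. For each of the 27 genes tested on the first type, the deviation of an array was taken as its log2 signal minus the wild type mean of the gene. The mean deviation over the 27 genes was 0.09, -0.02 and -0.08 in failure. In hypertrophy replicates 1 to 8 it was -0.56, -0.04, 0.09, -0.16, -0.07, -0.40, 0.29 and 0.20, and in wild type replicates 1 to 5 it was -0.06, -0.24, 0.18, 0.10 and 0.03. Group means were -0.002 ± 0.090 in failure (SD, n = 3) and -0.083 ± 0.289 in hypertrophy (SD, n = 8), with an SD of 0.163 in wild type (n = 5), whose mean is 0 by construction. The hypertrophy arrays thus lay on both sides of wild type and spread more widely than the failure arrays.

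**Figure D2:**
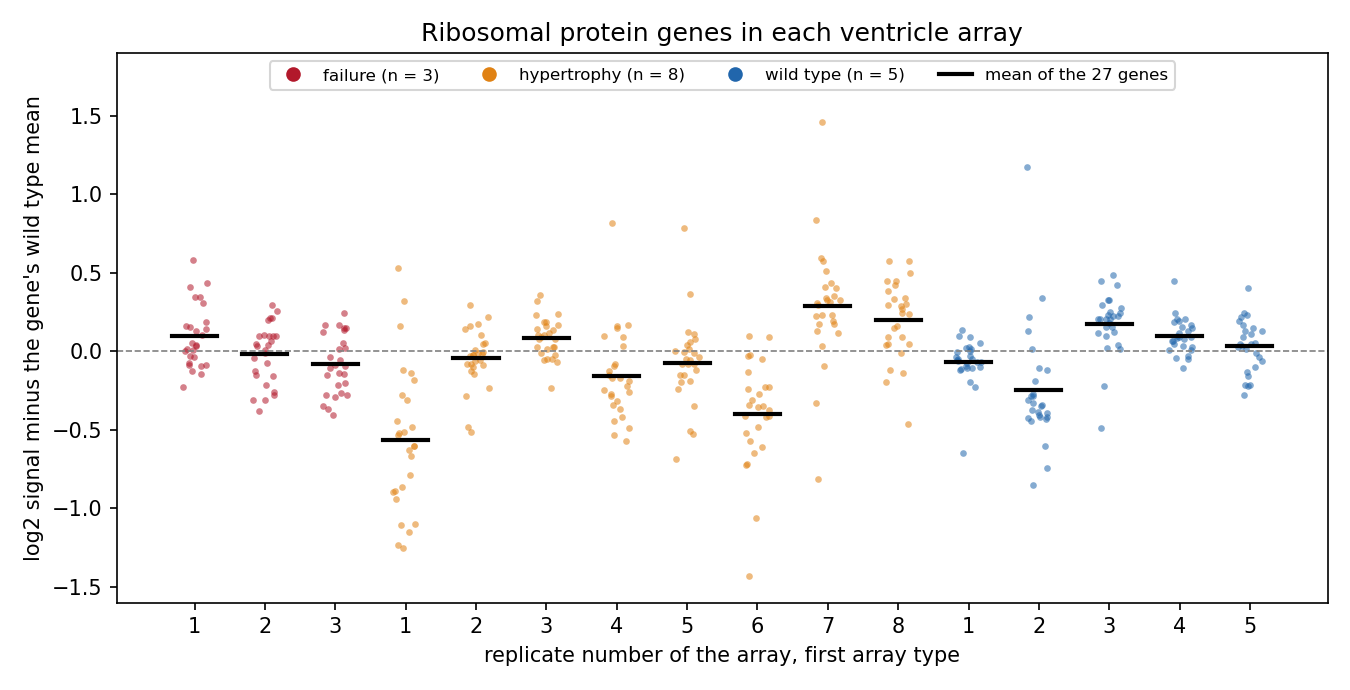
Deviation of each of 27 genes (points) from its wild type mean on the log2 scale (y axis) on each array of the first type (x axis), by group, with a bar for the mean over the genes. Hypertrophy replicates 1 and 6 sit lowest, at means of -0.56 and -0.40, and replicate 7 highest at 0.29.

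Most of the genes deviated together. In hypertrophy replicate 1 there were 3 of 27 genes above their wild type mean, in replicate 6 there were 2, and in replicates 7 and 8 there were 24 and 22. In wild type replicate 2 there were 5 of 27, and in wild type replicate 3 there were 25. Replicate 1 of hypertrophy was the lowest of the 16 arrays for 14 of 27 genes, and for 31.1% of all tested probe sets. Replicate 6 was the lowest for 6 of 27, against 10.6% of all probe sets. Replicates 7 and 8 were the highest for 11 and 7 genes, against 25.9% and 4.76% of all probe sets.

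Part of this shift was shared by the arrays as a whole. The mean deviation of all 6980 tested probe sets was -0.24 in hypertrophy replicate 1, -0.05 in replicate 6 and 0.11 in replicate 7. After quantile scaling the 27 genes still had mean deviations of -0.31, -0.30 and 0.20 in these 3 arrays, and after median scaling -0.32, -0.41 and 0.14. Under median scaling replicate 6 was lower than replicate 1, and the sign of each of the 3 arrays was the same under all scalings.

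As a description with no test, deviations from the group means were correlated between genes over the 16 arrays. The 351 pairs among the 27 genes had a median r of 0.64 and 83.2% of them were above 0, against a median of 0.09 and 58.9% for pairs of all 6980 tested probe sets. Arrays share their scaling and RNA quality across genes, so these points are not independent. The pairs of all tested probe sets were not matched to the 27 genes for brightness. With the mean of the other genes, 22 of 27 had an r of at least 0.5. The 5 below that, named after their values were seen, were Rps13 (-0.73), Rpl22 (-0.56), Rpl32 (0.08), Rps15 (0.33) and Rpl39 (0.39). Rps18 followed the others most closely, at 0.97. Of the other tested genes with a run shown above, Rps10 and Rpl7a had 0.95, Rps24 0.89 and Rps27 0.64. The Rps24 value comes from the probe set of uncertain identity. The other Rps24 probe set was lowest in hypertrophy replicate 7, at 69.6, and had 136 in wild type replicate 2, against the common course. It was also low in hypertrophy replicate 6, at 74.3, as most of the genes were. Genes with a matched promoter but no run, such as Rps3a1 (0.95), Rpl41 (0.92) and Rpl6 (0.92), also followed closely. These correlations rest on a single probe set per gene, and other probe sets did not all follow. The dimmest Rps28 probe set and the brightest of the other Rps4x probe sets were highest in wild type replicate 2, at 448 and 194. Another probe set of Rps28 and the other one of Rpl10a were highest in hypertrophy replicate 7, at 3136 and 153, with the common course.

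**Figure D3:**
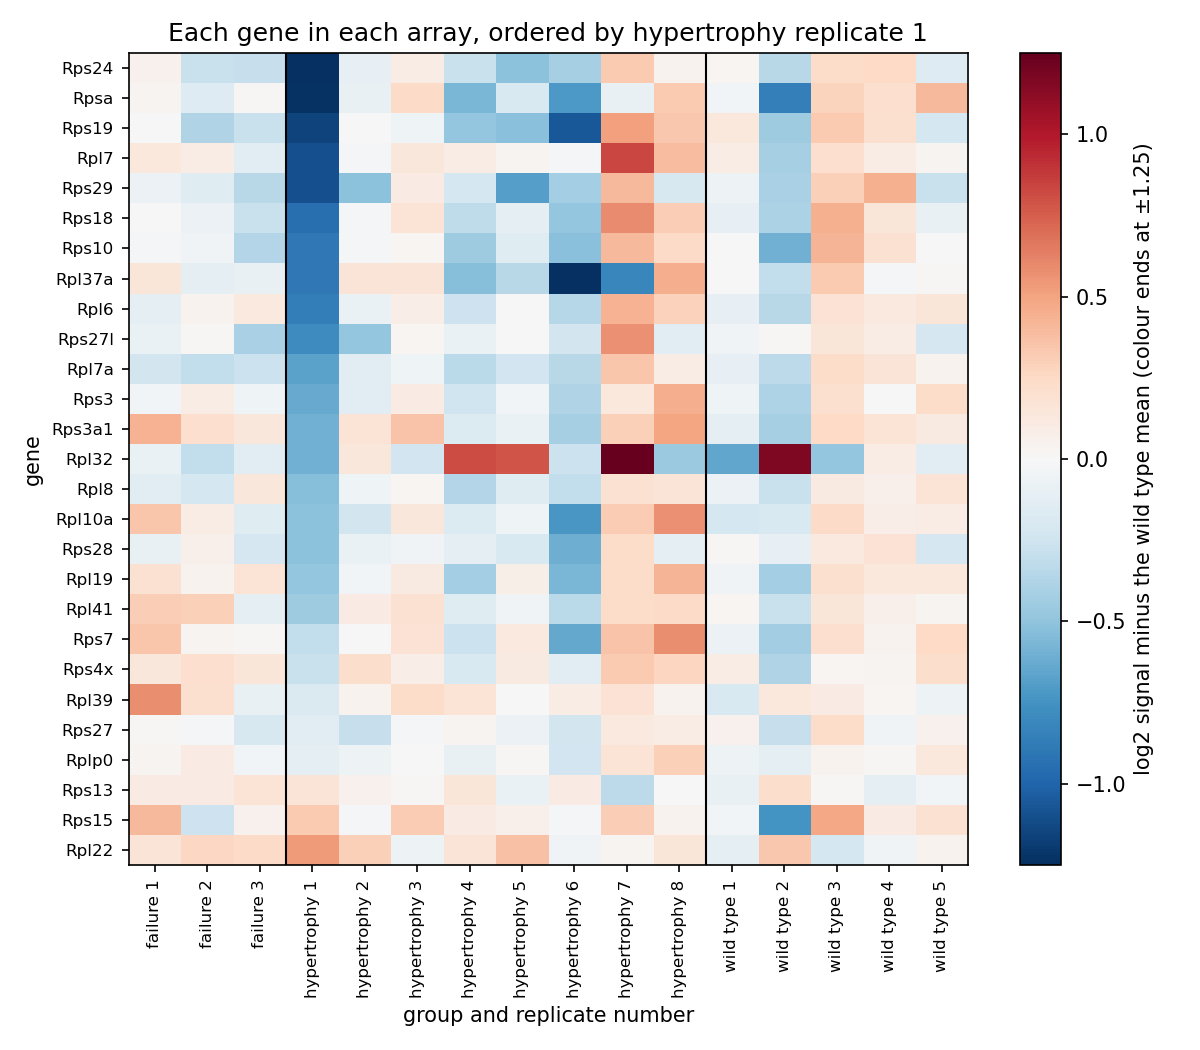
Deviation from the wild type mean (colour, log2 scale) of each of 27 genes (rows) on each array of the first type (columns), ordered by hypertrophy replicate 1. Most rows are blue in hypertrophy replicates 1 and 6 and in wild type replicate 2, while Rps15, Rps13 and Rpl22 at the bottom are above their wild type mean in hypertrophy replicate 1.

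Rps18, a small-subunit head protein, illustrates the common course. It had 1293, 1221 and 1058 in failure, 670, 1262, 1444, 1032, 1182, 921, 1939 and 1586 in hypertrophy replicates 1 to 8, and 1195, 977, 1752, 1423 and 1201 in wild type. The lowest and the highest hypertrophy array differed by more than any failure or wild type arrays did, and the changes of group means were -0.11 ± 0.27 in failure and -0.10 ± 0.21 in hypertrophy against wild type. The brighter probe set of Rpl22 ran the other way, with 449 in hypertrophy replicate 1, its highest array, and 392 in wild type replicate 2. Rps13 was likewise lowest in hypertrophy replicate 7, at 1513, and highest in wild type replicate 2, at 2214. The dimmer Rpl22 probe set, which was not tested, did not run as the brighter one did. It had its lowest hypertrophy signal in replicate 1, at 3.10, and its lowest wild type signal in replicate 2, at 52.7. Its highest hypertrophy signal was in replicate 6, at 86.6.

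Rpl32 took a course of its own. Its signal was 89.2, 76.3 and 85.6 in failure. It was 260, 167 and 163 in hypertrophy replicates 7, 4 and 5 and 62.5 to 104 in the 5 others, and 213 in wild type replicate 2 and 60.6 to 101 in the 4 others. These 4 arrays stood apart from the rest in 2 groups. The within-group SD of Rpl32 was 0.67 on the log2 scale, the widest of the 27, and its changes were -0.18 ± 0.44 in failure and 0.20 ± 0.34 in hypertrophy against wild type.

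Spread differed between the groups. The median SD of log2 signal over the 27 genes was 0.15 in failure, 0.39 in hypertrophy and 0.23 in wild type, while over all tested probe sets it was 0.16, 0.26 and 0.17. Of the 27 genes, 23 varied more in hypertrophy than in wild type, as did 81.5% of all tested probe sets. Rps13 and Rplp0 varied least within groups (SD 0.14 each), followed by Rps27 (0.16), and after Rpl32 the widest were Rps19, Rpl37a and Rpsa (0.48 to 0.49).

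The 18S control and the ribosomal protein genes are set side by side here. Hypertrophy replicate 1, at 5877, had the lowest mean deviation of the 27 genes, and wild type replicate 2, at 6297, the lowest in its group. Hypertrophy replicate 4, at 3613, had -0.16. Hypertrophy replicate 6 had an 18S signal of 364 and a mean of -0.40, and is one of the arrays of low Gapdh ratio. Hypertrophy replicate 7, the other such array, had an 18S signal of 307 and a mean of 0.29. On the second array type, hybridised under the same labels, the 18S signal of each label differed from the first by at most 0.57 on the log2 scale, within a range of 4.47 over the arrays. The part of the 18S signal and of RNA quality in the pattern was not tested.

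**Figure D4:**
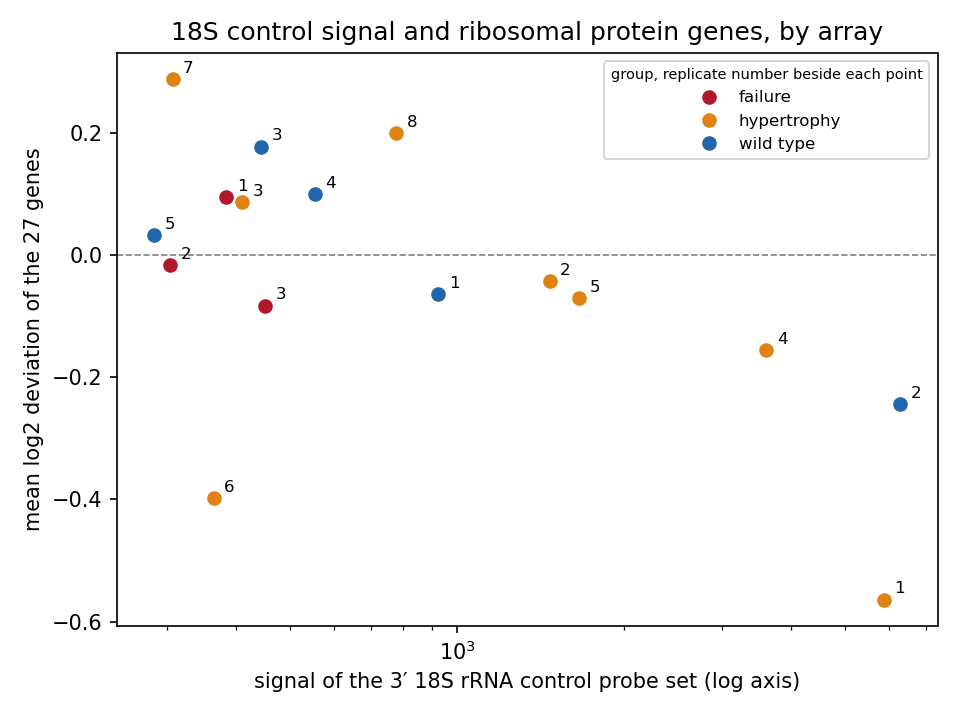
Mean log2 deviation of the 27 genes (y axis) against the signal of the 3′ probe set for 18S ribosomal RNA (x axis, log scale) on each array of the first type, with the replicate number beside each point. Hypertrophy replicates 1 and 4 and wild type replicate 2, with 18S signals of 3613 to 6297, all lie below 0, and hypertrophy replicate 6 lies at -0.40 with a signal of 364.

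Markers of other cell types also deviated on some of these arrays. In hypertrophy replicate 1 the mean deviation was -0.75 over 7 endothelial markers, 0 of them above their wild type mean, -0.61 over 10 fibroblast markers, with 3 above, and -0.35 over 9 heart muscle markers, with 1 above. In hypertrophy replicate 6 it was -0.15, 0.28 and -0.14 for these 3 lists, with 2, 8 and 2 markers above, and in replicate 7 it was 0.17, -0.07 and 0.03, with 5, 4 and 4 above. The 3 red cell genes had means of -1.15, -1.26 and -0.72 in replicates 1, 6 and 7, with 0 above in each. The 3 atrial genes had means of -1.31, -0.45 and 0.58, with 0, 0 and 2 above. Not every list fell in replicate 1. The 4 lymphocyte markers had a mean of 0.32 there, with 4 above, and the 1 adipocyte marker had 0.18. The 13 macrophage and leukocyte markers had -0.04, with 8 above, and the 4 smooth muscle and pericyte markers -0.50, with 0 above. Fewer cells of a type and less RNA per cell cannot be told apart in such bulk samples, and the part of cell composition in the ribosomal protein pattern was not tested.

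The probe sets that name a ribosomal protein gene with its copies, 1 for each of 33 genes or gene pairs, gave a second reading of the same arrays. Of these, 31 were tested, 28 of them on the first type. None passed in any comparison. Their median log2 change was -0.079 in failure against wild type (12 positive), -0.068 in hypertrophy against wild type (7 positive) and 0.052 in failure against hypertrophy (19 positive). Over the 28 on the first type, the mean deviation was -0.68 in hypertrophy replicate 1, with 0 above their wild type mean, and 0.53 in replicate 7, with 26 above. In wild type replicate 3 all 28 were above, and in wild type replicate 2 there was 1. On the second type, deviations in hypertrophy replicates 1 and 7 were -0.95 and 0.83 for Rpl31, -0.81 and 0.12 for Rps14 and 0.08 and 0.10 for Rpl9. Rps6, the target of S6 kinase, had 1638, 1849 and 1696 in failure, 1134 to 2136 in hypertrophy and 1610, 1340, 1736, 1617 and 1632 in wild type, a change of 0.13 ± 0.17 in failure against wild type. The change was 0.12 ± 0.13 for Rplp1, a stalk protein, and 0.17 ± 0.20 for Rpl5, which carries 5S ribosomal RNA, with adjusted p-values of 0.814 to 0.861 for the 3 genes.

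Rpl3, a core protein near the peptidyl transferase centre, had the one unadjusted p under 0.05 among the 31 in failure against wild type. Its brighter probe set, which also names 2 copies of the gene, had 728, 625 and 560 in failure, 300 to 511 with a median of 401 in hypertrophy, and 355, 367, 411, 434 and 308 in wild type. All 3 failure arrays lay above all 13 others. The change was 0.77 ± 0.16 in failure against wild type with an adjusted p of 0.0639, and 0.71 ± 0.15 in failure against hypertrophy with an adjusted p of 0.128. The change against wild type passed in 8 of 29 alternative settings, among them quantile scaling (adjusted p 0.0277) and median scaling (0.0425), and not in the other 21. Its adjusted p was 0.504 without failure replicate 1, 0.390 without failure replicate 2 and 0.154 with the replicate number as a block. The change lay between 0.67 and 0.86 in all 29.

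The dimmer probe set of Rpl3 did not show this difference. It gave 123, 134 and 104 in failure, 91.6 to 152 in hypertrophy and 122, 110, 143, 153 and 99.6 in wild type, a change of -0.05 ± 0.17 in failure against wild type (adjusted p 0.964). Its 3 groups overlapped throughout, and both probe sets name the same symbols.

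**Figure D5:**
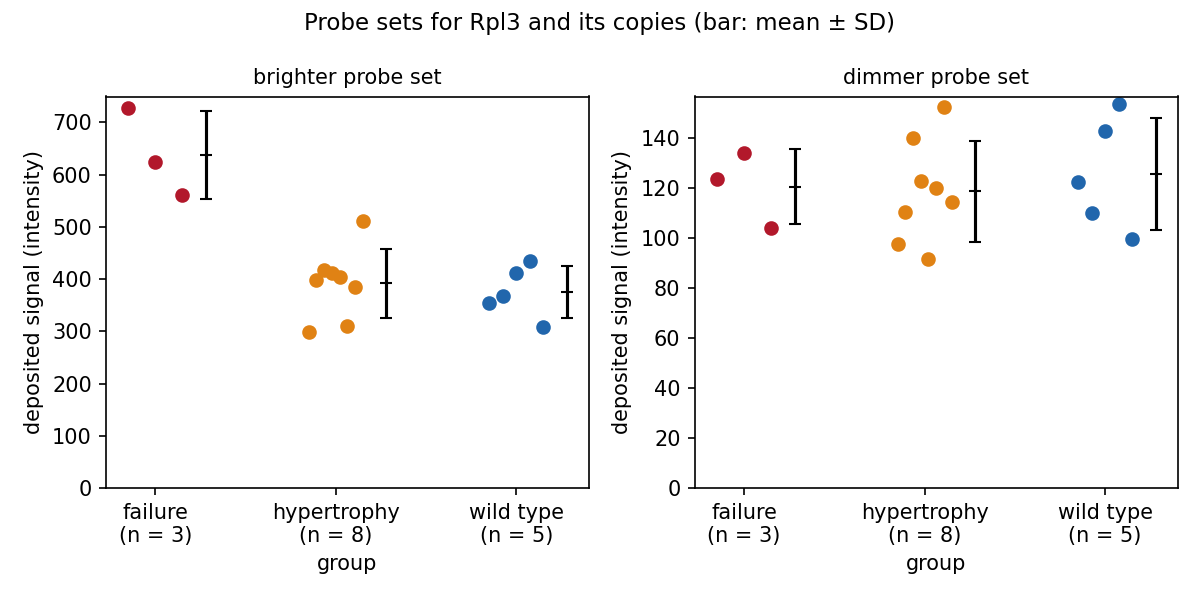
Deposited signal (y axes, from 0) of the brighter and the dimmer probe set for Rpl3 and its copies in failure, hypertrophy and wild type (x axes). Points are arrays and bars the mean ± SD. In the brighter probe set the failure arrays, at 560 to 728, lie above all others, and in the dimmer one the groups overlap.

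Groups that did not overlap in failure against wild type were found for 3 of the 31, Rpl3, Rpl14 and Rpl29, set beside 13.3% of all tested probe sets of the first type. Rpl14 had 404, 410 and 406 in failure and 514, 424, 549, 549 and 467 in wild type, a change of -0.29 ± 0.23. Rpl29 had 491, 596 and 495 in failure and 656, 611, 789, 779 and 656 in wild type, a change of -0.40 ± 0.25. These 2 large-subunit genes lay below wild type where Rpl3 lay above it, and neither passed (adjusted p 0.704 and 0.615). Among the other probe sets of the 36 genes, the second one of Rpl7 had 184, 183 and 211 in failure and 148, 156, 167, 144 and 175 in wild type. All 3 of its failure arrays exceeded wild type, with a change of 0.29 ± 0.13 and an adjusted p of 0.426, while the groups of the brighter Rpl7 probe set overlapped.

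Genes that act with the ribosome were read from lists chosen for their function. None passed the test in any of the 3 comparisons in any of the lists below. Of the genes whose proteins are in or bound to the ribosome but outside the symbol rule, Fau was dim (54.3, 52.9 and 55.6 as means of failure, hypertrophy and wild type). Naca, which guards the nascent chain, had 970, 842 and 934 in failure and 778, 657, 745, 779 and 756 in wild type, a change of 0.30 ± 0.22 (adjusted p 0.686). The change of its partner Btf3 was 0.09 ± 0.26.

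The elongation factors and other messages with a terminal oligopyrimidine tract had a median change of 0.160 in failure against wild type, positive for 12 of 14 tested genes, and of 0.311 in failure against hypertrophy, positive for 13. In hypertrophy against wild type it was -0.064, positive for 2. Pabpc1, the poly(A) binding protein, had 574, 538 and 494 in failure, 241 to 432 in hypertrophy and 380, 324, 331, 391 and 375 in wild type. Its failure arrays exceeded all others, with a change of 0.57 ± 0.16 against wild type (adjusted p 0.199). The change was 0.57 ± 0.19 for Eif4b, a helicase cofactor, 0.38 ± 0.16 for the elongation factor Eef1a1 and 0.61 ± 0.41 for Eef2, which moves the ribosome along the message, with adjusted p-values of 0.277 to 0.649.

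Initiation factors had medians of 0.018, -0.061 and 0.087 over 24 tested genes in failure against wild type, hypertrophy against wild type and failure against hypertrophy. Changes were positive for 13, 10 and 19 of them. Eif3a, the largest subunit of its complex, had the smallest p, with 271, 278 and 285 in failure and 205, 155, 188, 185 and 188 in wild type, a change of 0.60 ± 0.18 (adjusted p 0.218). Eif4e2, Eif5 and Eif4a1 had changes of 0.29 to 0.41. Of the ribosome biogenesis genes, 26 of 47 were tested, with medians of 0.056, -0.031 and 0.091 and positive changes for 16, 11 and 18. Nucleolin (Ncl), a major nucleolar protein, had 883, 1193 and 1220 in failure, 374 to 1031 in hypertrophy and 715, 315, 549, 598 and 572 in wild type, a change of 1.03 ± 0.31 (adjusted p 0.218). All failure arrays of Ncl lay above wild type and in part within the hypertrophy range. Nob1, Gar1 and Ddx21, which act in the processing or modification of ribosomal RNA, had changes of 0.27 to 0.37. The genes named from both lists were picked by small p in failure against wild type.

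In the mTORC1 and S6 kinase list the medians over 15 tested genes were 0.088, 0.054 and 0.057 in the same order. Eif4ebp1, the inhibitor of cap-dependent initiation that mTORC1 switches off, had 150, 153 and 144 in failure and 93.7, 64.5, 86.4, 78.5 and 85.9 in wild type. Hypertrophy arrays ran from 72.8 to 156, and the change in failure against wild type was 0.87 ± 0.19 (adjusted p 0.0823). Sesn1, an upstream inhibitor of mTORC1, had 251, 276 and 260 in failure, 126 to 232 in hypertrophy and 150, 144, 147, 107 and 151 in wild type, a change of 0.92 ± 0.19 (adjusted p 0.0587). Ddit4 and Tsc1, further inhibitors of mTORC1, had changes of 0.69 ± 0.26 and 0.42 ± 0.17. All 4 of these genes, named for their small p in this comparison, had failure arrays above all wild type arrays. Naming genes by small p among the 15 tested favours genes whose groups do not overlap. Of all tested probe sets, 13.3% of the first type and 13.8% of the second had no overlap in this comparison.

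Mitochondrial ribosomal protein genes, which serve the ribosome inside mitochondria, had medians of -0.208, -0.090 and -0.076 over 56 tested genes, with positive changes for 8, 9 and 19. Mrpl42 had 67.5, 64.0 and 81.9 in failure, 56.9 to 96.7 in hypertrophy and 121, 99.3, 110, 112 and 118 in wild type, so that both transgenic groups lay below wild type without overlap. The change was -0.66 ± 0.15 in failure (adjusted p 0.117) and -0.49 ± 0.12 in hypertrophy (adjusted p 0.590). Mrps34, Mrps36 and Mrps7 had changes of -0.42 to -0.47 in failure against wild type. In hypertrophy replicates 1 and 7 the mean deviation of the 44 of these genes tested on the first type was -0.57 and 0.24. These signs were those of the cytosolic ribosomal protein genes, but also those of all tested probe sets (-0.24 and 0.11). Initiation factors (-0.52 and 0.31) and ribosome biogenesis genes (-0.25 and 0.07) had them too. The list of elongation factors and other oligopyrimidine messages had -0.14 and -0.31, with 4 of 13 genes above their wild type mean in replicate 7. In hypertrophy replicate 6 and wild type replicates 2 and 3 the mitochondrial genes had -0.28, -0.24 and 0.17. The cytosolic genes had -0.40, -0.24 and 0.18 there, and all tested probe sets -0.05, -0.05 and 0.05. The course across these arrays was thus shared by both kinds of ribosomal protein gene. In failure the mitochondrial genes had -0.25, -0.20 and -0.15, and the cytosolic genes 0.09, -0.02 and -0.08.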

How the data were processed

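Total RNA of mouse ventricle was measured on 32 arrays of 2 types (16 each). The authors deposited linear intensities, 1 per probe set, and their scaling method is not given in the sources used. Array trimmed means had a coefficient of variation of 4.82% and 3.31%, and medians one of 6.60% and 4.65%, and since the trimmed means stayed under 5% the values were used without further scaling. Values below the 20th percentile of a type (39.5 and 27.5) were set to that value before taking logarithms to base 2, so changes of dim probe sets are understated. Tested were probe sets at or above the median of the array in 3 or more arrays, without controls: 6980 of 12488 and 7004 of 12477. Each type was fitted with limma 3.58.1 in R 4.3.3 over all 3 groups, with two-sided tests adjusted by Benjamini-Hochberg per type and comparison. Figures were drawn with matplotlib 3.10.9. Symbols came from the platform annotation, and a probe set shared by several genes was not used for the 36. Precision is limited by the number of arrays. Tested on simulated data of the first type (200 changed of 6980 probe sets), the fit recovered 23.5% of log2 changes of 0.5 and 82.5% of changes of 1 in failure against wild type, 50.5% and 89.5% in hypertrophy against wild type, and 30.5% and 86.0% in failure against hypertrophy. Of the probe sets called, 4.28% to 9.62% were false. The simulated errors were independent between probe sets drawn at random. The 28 genes had larger standard errors and mostly deviated together, so these shares may be too high for them.

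The genes and lists were chosen with earlier results of these data known. Genes named were Rplp0, Rpsa, paralogs with their partners, the 6 smallest p-values per comparison, and up to 4 per related list, and others are named where they stood apart, after their values were seen. Alternatives were 2 scalings, 2 floors, no filter, robust eBayes with a variance trend, weights per array, fits of the 2 compared groups alone, the replicate block, each array left out, hypertrophy replicates 6 and 7 left out, Gapdh and Actb ratios as covariates, other probe sets, and a common adjustment of both types. The 18S covariate and the addition of probe sets with several symbols were chosen after seeing the data. Same-numbered arrays did not deviate together in all pairs (correlations from -0.19 to 0.36), so replicate numbers were not taken to pair arrays.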

Additional observations from a re-analysis of the deposited data

How the results depend on the processing

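The count of 0 ribosomal protein genes past the threshold held in all 31 settings in 2 comparisons, that of hypertrophy with wild type and that of failure with hypertrophy. In failure against wild type it was 1, Rpl7a, with array weights, and 0 in the 30 others. The median log2 change lay between -0.103 (median scaling) and 0.096 (Actb ratio as a covariate) in failure against wild type, between -0.170 (replicate block) and -0.019 (without hypertrophy replicate 1) in hypertrophy against wild type, and between -0.084 (18S covariate) and 0.191 (replicate block) in failure against hypertrophy. Leaving out 1 array at a time gave medians of -0.085 to 0.049, -0.145 to -0.019 and 0.023 to 0.141 in the same order. With the replicate block, which uses numbers not shown to pair the arrays, 0 genes passed in each comparison, and the median of failure against wild type was 0.060. Adding the 31 tested probe sets that also name copies, of which 1 reads Rps27 a second time, gave medians of -0.034, -0.080 and 0.075. Of the single genes, Rpl37a in hypertrophy against wild type and Rpl39 in both failure comparisons moved by more than the SD of the wild type arrays when the arrays named above were left out. The cause of these movements was not tested. Dim signals near the floor left 8 of the 36 genes untested.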

Other observations

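The brighter and the dimmer probe sets of Rpl3 and its copies, and those of Rpl7, gave different readings of failure against wild type, and which of each pair follows the gene was not tested. Probe sets of Rpl22, Rps24, Rps28 and Rps4x differed in their course across arrays, and which of them follows the gene was not tested either. No array of the hypertrophy or wild type group lay far from its fellows, by Dixon's criterion, in any of 38 group sets examined over 18 named genes and the mean of the 27.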
